A study of Homo sapiens with 2 samples.

Results

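The 10 genes described here encode the interleukin-2 (IL-2) receptor, the kinases and transcription factors that carry its signal, and early target genes of that signal: IL2RA, IL2RB, IL2RG, JAK1, JAK3, STAT5A, STAT5B, CISH, SOCS1 and PIM1. They were found by gene symbol in the deposited table of read counts, and all 10 were among its 46427 genes. NK92 is an established human natural killer (NK) cell line derived from an aggressive NK cell leukemia, and PPMX-T003 is an antibody that blocks transferrin receptor 1, the receptor for iron carried by transferrin. After a pre-incubation of 18 h in a medium with 2% human serum, the NK92 cells were split between 2 dishes of new medium. For the next 6 h of culture, 1 dish held PPMX-T003 at 10 µg/mL and the control dish had none. Poly(A) RNA of each dish gave 1 stranded library. The amount of IL-2 in the medium is not given in the sources used here. In the deposited table the columns carry the names 0 h and 6 h, although the study's methods give the same culture time for both dishes. The 0 h column was read as the control, and a difference in harvest time cannot be told apart from the exposure.

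IL-2 binds a receptor of 3 chains. IL2RA (CD25) raises the affinity and does not signal, IL2RB (CD122) and the common gamma chain IL2RG signal and are shared with the IL-15 receptor, and JAK1 and JAK3 are the kinases attached to IL2RB and IL2RG. The kinases phosphorylate STAT5A and STAT5B, which enter the nucleus and bind DNA words of the form TTCNNNGAA, often called GAS sites. CISH and SOCS1 are early targets that damp the signal, and PIM1 is an early target that encodes a kinase of growth and survival. NK92 cells are known to depend on IL-2 for growth in culture.

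The control library held 46766416 counts and the exposed library 43178462. Of these, 125146 and 118923 fell on the 10 genes, which is 0.268% (95% Clopper-Pearson interval 0.266% to 0.269%) and 0.275% (0.274% to 0.277%). With 1 library per condition there is no replicate error, so no p-value is given, and every interval below covers counting error only and compares the libraries. CPM stands for a gene's counts relative to the size of its library, scaled by TMM (a trimmed mean of the log ratios). A fold change is the difference in log2 CPM, exposed minus control, with 2 as the prior count. All 10 genes passed the filter of at least 20 counts summed over the libraries, as did 13665 genes in all. In bulk RNA, fewer cells that express a gene and less of its RNA per cell cannot be told apart.

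All NK cell markers checked had more than 3 counts in at least 1 library (14 of 14), with a summed level of 6872 TPM (transcript abundance relative to length and library) in the control and 7465 TPM in the exposed library, led by NKG7 (3215 and 3445 TPM) and GZMB (1850 and 2149 TPM), which make up most of the difference in the sum. The counting interval of the fold change lay above 0 for 7 of the NK cell markers and below 0 for 3 (NCAM1, CD2 and KLRC1), against 21.8% and 23.9% of all genes tested. Most NK cell markers had at least 2000 counts summed over the libraries, where these shares were 29% and 34.4%. Of 11 T cell markers, 7 had more than 3 counts, and CD3D, CD3G, CD8A and CD5 were at 0 in both libraries and CD4 had 4 and 0 counts, while CD3E was the most abundant (673 and 698 TPM) and the list summed to 1565 and 1688 TPM, with 4 intervals above 0 and 1 below. B cell markers summed to 2 and 1 TPM (most abundant CD79A), myeloid markers to 3 and 2 TPM (ITGAM) and erythroid markers to 0 TPM, with MS4A1, MPO, HBA1, HBA2 and HBB at 0. PAX5 was the 1 B cell marker with an interval off 0. It had 169 and 78 counts, a log2 fold change of -0.98 (-1.40 to -0.60). Of 6 stromal and epithelial markers, PDGFRB alone had more than 3 counts (80 and 75 TPM), and its interval lay below 0 (-0.061, -0.10 to -0.017). The part of marker differences in the values below was not tested.

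The transcripts of the pathway spanned a wide range of levels, and their order was the same in both libraries, in TPM and in FPKM. TPM, which the authors gave as whole numbers, takes transcript length into account, so levels of different genes can be compared on it. From the highest down, the control levels were 669 TPM for IL2RB, 428 for IL2RG, 272 for CISH, 269 for PIM1, 115 for JAK1, 65 for STAT5A, 49 for IL2RA, 42 for STAT5B, 20 for JAK3 and 3 for SOCS1. The neighbours CISH and PIM1 lay within 3 TPM of each other in the control library and were at 275 and 244 TPM in the exposed one. IL2RB was the 193rd most abundant of the genes tested in the control library by this measure, and IL2RG the 357th.

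**Figure D1:**
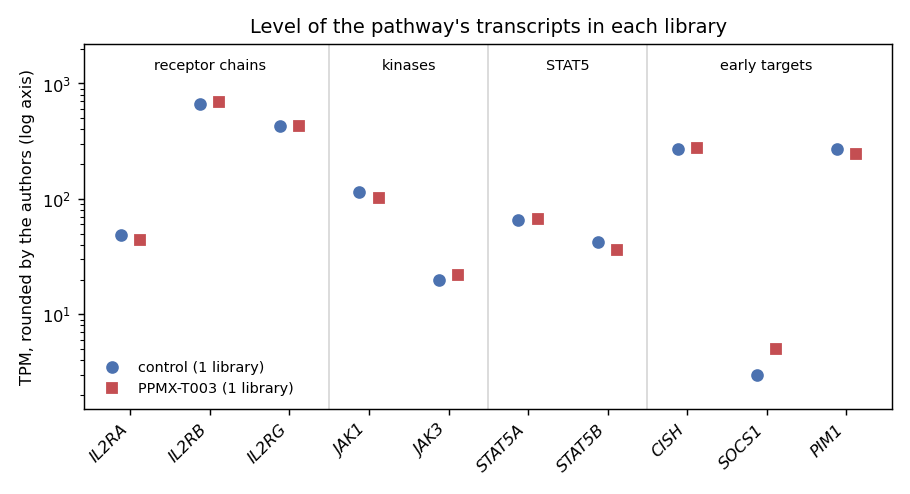
Level of each gene in TPM, as rounded by the authors, on a log axis, with circles for the control library and squares for the library exposed to PPMX-T003 (1 library each, so no error bars). IL2RB stands highest at 669 and 696 TPM and SOCS1 lowest at 3 and 5 TPM, and the order of the 10 genes is the same in both libraries.

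Between the libraries, the levels of 9 of the 10 genes differed by less than 1.2-fold, and SOCS1 alone was past it. No member was 2-fold higher or 2-fold lower, where 1.27% of all genes tested were higher by that much and 1.38% were lower. At 1.2-fold, 1 of 10 members was higher, against 12.2% of all genes, and 0 of 10 were lower, against 12.4%. The median log2 fold change was 0.061 over the members and -0.0020 over all genes tested. The counting interval lay above 0 for 6 members (IL2RB, IL2RG, JAK3, STAT5A, CISH and SOCS1) and below 0 for 4 (IL2RA, JAK1, STAT5B and PIM1), against 21.8% and 23.9% of all genes tested. This interval narrows with the number of reads, and 9 of the members had at least 2000 counts. Among genes with that many, a limit chosen after seeing the data, 29% lay above 0 and 34.4% below.

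**Figure D2:**
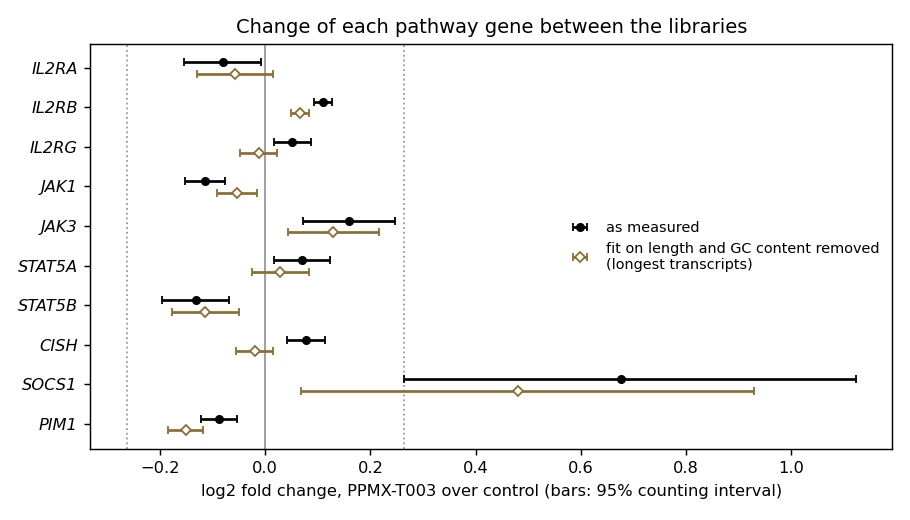
Log2 fold change of each gene, exposed over control, with 95% counting intervals as bars, dotted lines at 1.2-fold, filled circles for values as measured and open diamonds for values after subtraction of a regression on length and GC content (longest transcripts). As measured, SOCS1 (0.68) lies beyond the upper line and the other 9 genes lie between -0.13 and 0.16.

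The receptor chains differed little between the libraries. IL2RA (NCBI Gene ID 3559, GRCh38 chr10:6010689-6062367) had 3263 counts in the control and 2845 in the exposed library, or 69.7 and 65.9 CPM. Its log2 fold change was -0.080 (interval -0.15 to -0.0075), and with upper-quartile scaling the interval of IL2RA held 0 (-0.14 to 0.0044). The signalling chains had values above 0 as measured, but not in every setting once a regression on length and GC content of transcripts had been subtracted. IL2RB (3560, chr22:37125838-37175118) had 56260 and 55986 counts, or 1202 and 1298 CPM, a log2 fold change of 0.11 (0.093 to 0.13), and -0.011 (-0.028 to 0.0055) after it or 0.066 with the longest transcripts in it. IL2RG (3561, chrX:71107404-71111577) had 13204 and 12614 counts, or 282 and 292 CPM, a log2 fold change of 0.051 (0.016 to 0.087), which turned to -0.0034 when computed from TPM and was 0.0046 (-0.031 to 0.040) after the regression. The intervals of all 3 chains held 0 after it, but with the longest transcripts in it that of IL2RB lay above 0 (0.049 to 0.083). IL2RB exceeded IL2RA 13.7-fold on the TPM scale in the control library and 15.8-fold in the exposed library, so the chain that raises the affinity was the scarce one at the RNA level in both. IL2RG exceeded IL2RA 8.73-fold and 9.70-fold. In the GENCODE release 29 annotation, 63.5% of the 50-base words of the IL2RG transcripts also occur in AL590764.2, a gene of the same strand that reads through IL2RG. Reads of IL2RG could be divided between such models if the counting used both, which was not tested.

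The kinases differed in direction as measured. JAK1 (3716, chr1:64833229-65067746) had 12179 and 10371 counts, or 260 and 240 CPM, and a log2 fold change of -0.11 (-0.15 to -0.077). JAK3 (3718, chr19:17824782-17847982), whose expression is largely limited to blood cells, had 2114 and 2176 counts, or 45.2 and 50.4 CPM, and a log2 fold change of 0.16 (0.072 to 0.25). The counting intervals of these kinases do not overlap as measured. After the regression that of JAK1 held 0 (-0.028, -0.066 to 0.0094) and did not overlap that of JAK3 (0.019 to 0.19). With the longest transcripts in it, JAK1 was below 0 (-0.091 to -0.015) and JAK3 above it (0.043 to 0.22). JAK1 was the more abundant in both libraries, 5.75-fold over JAK3 on the TPM scale in the control and 4.64-fold in the exposed library.

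The paralogs STAT5A and STAT5B, neighbours on chromosome 17, differed in direction as measured. STAT5A (6776, chr17:42287439-42311943) had 5672 and 5489 counts, or 121 and 127 CPM, and a log2 fold change of 0.070 (0.016 to 0.12). STAT5B (6777, chr17:42199177-42288370) had 4388 and 3691 counts, or 93.8 and 85.5 CPM, and a log2 fold change of -0.13 (-0.20 to -0.069). After the regression the interval of STAT5A held 0 (0.011, -0.042 to 0.065; 0.029, -0.025 to 0.082 with the longest transcripts), while STAT5B stayed below it. On the TPM scale STAT5A exceeded STAT5B 1.55-fold in the control and 1.86-fold in the exposed library. The genes are close copies, and 10.3% of the 50-base words of STAT5A transcripts and 9.88% of those of STAT5B occur in the other gene. In RefSeq the gene spans overlap by 932 bases. How the counting divided shared reads was not tested.

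CISH, a direct target of STAT5, was among the abundant transcripts of the pathway and differed little between the libraries. CISH (1154, chr3:50606489-50611774) had 12839 and 12491 counts, or 274 and 289 CPM, a log2 fold change of 0.078 (0.042 to 0.11). Exons of MAPKAPK3 overlap it on the opposite strand, with 8783 and 8487 counts and a log2 fold change of 0.068 (0.025 to 0.11). The library kit keeps the strand, but whether the counting used it is not given in the sources used here. The promoter window of CISH is shown because it is the one window of a member with the GAS word, and it holds that word 4 times. The windows run from 250 bases before to 50 bases after the start site (RefSeq, GRCh38.p14), and 13 windows were listed for 9 members, IL2RB having none. Of all 35116 windows, 7.66% hold TTCNNNGAA at least once and 7 windows, of 6 genes, hold it 4 times or more. The word is its own reverse complement, so a match counts for both strands. In CISH the matches begin at bases 10, 21, 122 and 139 of the window. BCL6, which encodes a transcriptional repressor and is known as a gene that STAT5 turns down, has a window with 4 matches too, and SOCS1 has none. The sequences are given 5′ to 3′ on the strand of the gene, with matches in capitals.
CISH, chr3:50611725-50612024, minus strand: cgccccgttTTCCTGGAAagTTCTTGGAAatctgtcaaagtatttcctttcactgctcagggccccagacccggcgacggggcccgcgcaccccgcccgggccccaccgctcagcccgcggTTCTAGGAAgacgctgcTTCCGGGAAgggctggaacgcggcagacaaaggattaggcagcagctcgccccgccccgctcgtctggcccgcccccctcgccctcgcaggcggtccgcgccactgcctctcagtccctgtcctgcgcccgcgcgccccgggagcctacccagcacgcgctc
BCL6, chr3:187745419-187745718, minus strand: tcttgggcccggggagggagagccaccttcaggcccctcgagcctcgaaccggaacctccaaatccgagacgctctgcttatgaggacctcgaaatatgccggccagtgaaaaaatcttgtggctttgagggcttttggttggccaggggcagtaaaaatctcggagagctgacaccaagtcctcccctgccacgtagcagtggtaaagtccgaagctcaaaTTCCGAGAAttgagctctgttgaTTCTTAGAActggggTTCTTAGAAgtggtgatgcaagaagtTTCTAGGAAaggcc
SOCS1, chr16:11256155-11256454, minus strand: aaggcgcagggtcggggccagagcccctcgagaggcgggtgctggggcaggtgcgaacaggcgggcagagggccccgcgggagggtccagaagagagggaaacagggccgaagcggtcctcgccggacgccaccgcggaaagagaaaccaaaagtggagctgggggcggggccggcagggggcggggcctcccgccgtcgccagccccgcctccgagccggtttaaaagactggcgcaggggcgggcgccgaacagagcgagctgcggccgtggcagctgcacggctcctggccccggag

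BCL6 had 104 and 105 counts, a log2 fold change of 0.13 (-0.27 to 0.54), so that a difference was not detectable at this depth. It was named after its values were seen. Of the other pathway genes with a window, IL15RA, IFNG, LTA and TNFRSF9 hold the word 1 time or more. With 4 bases between TTC and GAA in place of 3, STAT5A was the 1 member with a match, and 6.44% of all windows had one. A match describes these letters only and does not show that STAT5 binds there in NK92 cells.

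SOCS1, the other feedback inhibitor, was the scarcest member. SOCS1 (8651, chr16:11254417-11256204) had 78 counts in the control and 116 in the exposed library, or 1.67 and 2.69 CPM, a log2 fold change of 0.68 (0.26 to 1.12). This corresponds to a 1.60-fold higher level. Of the 500 genes tested nearest to it in mean level, 22 had a fold change as high or higher, which places it at percentile 95.6 (96 among the nearest 200 or 1000), and their SD was 0.40. CISH exceeded SOCS1 90.7-fold on the TPM scale in the control and 55-fold in the exposed library, ratios that rest on SOCS1 levels rounded to 3 and 5 TPM.

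PIM1 (5292, chr6:37170152-37175428) had 15149 and 13144 counts, or 324 and 305 CPM, and a log2 fold change of -0.088 (-0.12 to -0.054). Of the early targets, SOCS1 was higher and PIM1 lower in the exposed library with or without a regression on transcript length and GC content subtracted. CISH was higher without it, and its interval held 0 after it (0.0090, -0.027 to 0.045; -0.020 with the longest transcripts). PIM2, a related kinase from the list of other STAT5 targets, had 1824 and 2527 counts, a log2 fold change of 0.59 (0.50 to 0.68). All of the 500 genes nearest to PIM2 in level had lower fold changes (percentile 100). PIM3, named after its values were seen, had 4824 and 5251 counts and a log2 fold change of 0.24 (0.18 to 0.30), which was 0.11 with that regression subtracted and 0.082 with the longest transcripts in it. PIM1 remained the most abundant of the 3 PIM kinases by TPM, 6.40-fold above PIM2 in the control and 4-fold in the exposed library.

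Set against the 500 genes nearest in level, the other 9 members lay between percentile 22.2 (STAT5B) and percentile 90.2 (JAK3). The SD of those 500 log2 fold changes was 0.12 for IL2RB and 0.16 for STAT5B, and the other 7 members had values between these. This spread describes these libraries and is not a replicate error.

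**Figure D3:**
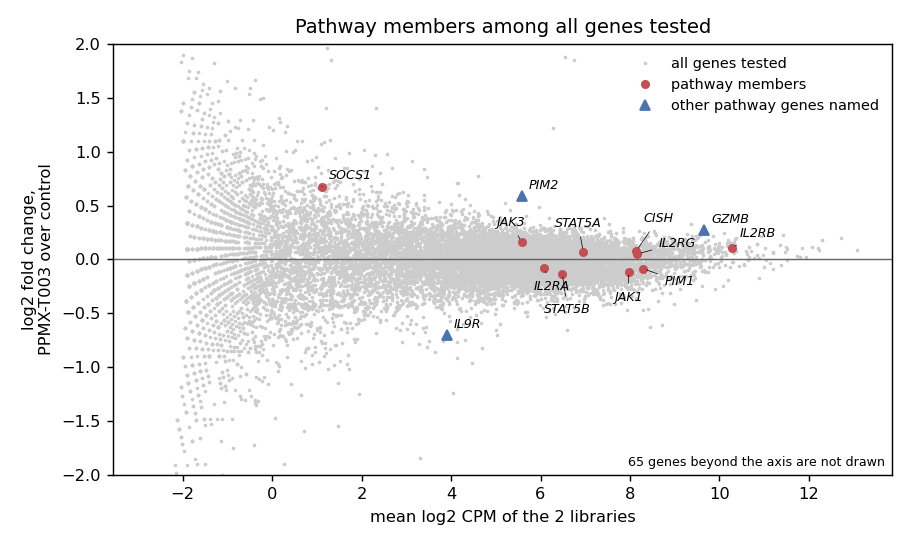
Log2 fold change, exposed over control, against mean log2 CPM of the libraries for all 13665 genes tested (grey; 65 genes beyond the axis are not drawn), with the 10 members as red circles and PIM2, IL9R and GZMB as blue triangles. The members lie inside the cloud of grey points at their level, SOCS1 (0.68) in its upper part, while PIM2 (0.59) and IL9R (-0.70) lie at its edges.

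The log2 fold changes of all genes followed the GC content of their transcripts. When the genes were divided by GC content into 10 groups of like size, the group medians climbed from -0.13 (lowest GC content) to 0.12 (highest). Of the members, 8 of 10 were on the same side of 0 as the median of their group, the others being STAT5B (GC content 53.2%) and PIM1 (56.1%), where 67.0% of all genes with a known GC content were. Farthest from the median of their group were SOCS1 (0.68 against 0.12), STAT5B (-0.13 against 0.043) and PIM1 (-0.088 against 0.068). SOCS1 had the highest GC content of the 10 (67.3%), and JAK1 the lowest (46.2%). A robust regression on length and GC content of the transcripts was then subtracted. After it, JAK3 (0.11, 0.019 to 0.19) and SOCS1 (0.52, 0.11 to 0.97) stayed above 0 and STAT5B (-0.13, -0.20 to -0.071) and PIM1 (-0.12, -0.15 to -0.084) below it. The intervals of the other 6 members then held 0, and IL2RB had turned to -0.011. When the regression used each gene's longest transcript, a choice made after seeing the data, the same 4 genes kept their sides, and IL2RB (0.066, 0.049 to 0.083) was above 0 and JAK1 (-0.053, -0.091 to -0.015) below it as well, while IL2RG (-0.012) and CISH (-0.020) turned below 0 with intervals that held it. The part of GC content in the members' differences was not tested.

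Other cytokines and receptors use the common gamma chain as well. Of 11 such genes, IL2, IL4, IL7, IL9, IL21 and IL7R had 0 counts in both libraries. Transcripts of IL-2 itself were thus not detected at this depth, a term used for 3 counts or fewer in each library. Of the 5 tested, 3 had an interval below 0 and 0 an interval above it, against 23.9% and 21.8% of all genes tested, with a median of -0.20. IL9R, the receptor chain for IL-9, had 893 and 505 counts, a log2 fold change of -0.70 (-0.87 to -0.55), and 0.4% of the 500 genes nearest in level had a lower value. IL9R lies in a pseudoautosomal region and has near-identical pseudogenes, of which IL9RP3 had 339 and 305 counts, so its value is uncertain. Summed with its listed pseudogenes, the log2 fold change was -0.48 (-0.62 to -0.36). IL4R, which carries the IL-4 signal, had 3846 and 3093 counts (-0.20, -0.27 to -0.13), and IL15, a cytokine that shares IL2RB, had 270 and 200 (-0.31, -0.59 to -0.047). After the fit on length and GC content the interval of IL15 held 0 (-0.22, -0.49 to 0.045). The 3 of the 5 with an interval below 0 were then IL9R, IL4R and IL15RA. IL15RA, named after its values were seen, had 1266 and 1131 counts (-0.045, -0.16 to 0.071) and was below 0 after the fit (-0.17, -0.28 to -0.048), when IL4R was at -0.32. IL21R had 3640 and 3369 counts, and a difference was not detectable (0.0056, -0.062 to 0.074).

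Among the 7 other JAK and STAT genes, 0 had an interval above 0 and 3 below it, against 21.8% and 23.9% of all genes tested, and the median was -0.042. At 2000 counts or more, as most of the 7 had, the shares of all genes were 29% and 34.4%. With the fit on length and GC content removed 5 of the 7 were below 0, with the longest transcripts in it 2 were, and with upper-quartile scaling 1 was above. STAT2, a factor of the type I interferon response, had 1145 and 863 counts (log2 fold change -0.29, -0.42 to -0.16), and STAT3 had 5298 and 4527 (-0.11, -0.17 to -0.052). STAT4, the main STAT of IL-12 signalling, had 4721 and 4361 counts with no detectable difference (0.0028, -0.057 to 0.063).

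Of 20 negative regulators, 16 were tested, with 3 intervals above 0 and 8 below it, against 21.8% and 23.9% of all genes tested, and a median of -0.045. The shares were 29% and 34.4% among all genes with at least 2000 counts, which most of these regulators had. After the fit on length and GC content, 4 intervals of the list were above 0 and 5 below, and its median was -0.017. CBL, a ubiquitin ligase that marks activated receptors for breakdown, had 9755 and 7242 counts (-0.31, -0.36 to -0.27), and 2.4% of the genes nearest in level had a lower value. With the longest transcripts in the fit CBL was at -0.19 (-0.23 to -0.14). SOCS4 had 4118 and 3194 counts (-0.25, -0.32 to -0.18) with a transcript GC content of 35.3%, and after the fit on length and GC content its value was -0.053 (-0.12 to 0.013), or -0.081 (-0.15 to -0.014) with the longest transcripts. PTPRC (CD45), the most abundant of the list, had 35615 and 32017 counts (-0.036, -0.058 to -0.015) and turned to 0.043 after the fit, and the phosphatase DUSP5 had 15233 and 15005 (0.095, 0.063 to 0.13). For DUSP5 the interval held 0 when the fit used longest transcripts (0.031, -0.0021 to 0.063). SOCS6 and PIAS2 had 0 counts in both libraries, SH2B3 had 0 and 2, and SOCS3 had 10 and 6. SOCS2, a further STAT5 target of the SOCS family named after its values were seen, had 3580 and 3330 counts (0.013, -0.056 to 0.081).

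Of 23 other STAT5 targets, 21 were tested, and 9 of them (42.9%) had an interval above 0 and 3 (14.3%) below, against 21.8% and 23.9% of all genes tested. Most of the tested targets had at least 2000 counts, and among all genes with that many 29% lay above 0 and 34.4% below. After the fit 10 of the list were above 0, with the longest transcripts 11, and with median-of-ratios scaling 5 were below. At least 1.2-fold higher were 4 genes (19.0%) and lower 0, against 12.2% and 12.4%, but 2 were higher after either fit and 1 when computed from TPM. The median of the list, 0.13, was 0.068 after the fit, 0.071 with the longest transcripts, 0.045 among genes with at least 200 counts and 0 in TPM. As measured, it was the value of BCL6 (104 and 105 counts, -0.27 to 0.54), known as a gene that STAT5 turns down. GZMB, which encodes granzyme B, had 34265 and 38124 counts (0.27, 0.25 to 0.29), and PRF1, which encodes perforin, had 23187 and 23802 (0.16, 0.13 to 0.18). BATF, an AP-1 family factor, had 1804 and 2032 counts (0.29, 0.20 to 0.38). After the fit and with the longest transcripts in it, GZMB was at 0.21 and 0.16, PRF1 at 0.088 and 0.059, and BATF at 0.19 and 0.12. The 3 targets with an interval below 0, named after their values were seen, were BCL2 (-0.15), XBP1 (-0.093) and TNFSF10 (-0.13). After the fit BCL2 was at -0.055 and XBP1 at -0.082, and the interval of TNFSF10 held 0 (-0.039, -0.15 to 0.070). LTA, also named after its values were seen, had 11523 and 10394 counts and an interval that held 0 as measured (-0.032, -0.070 to 0.0069). The interval of LTA lay below 0 after the fit (-0.093, -0.13 to -0.054) and with the longest transcripts (-0.14, -0.18 to -0.10). GZMB and PRF1 are also among the NK cell markers, of which 7 of 14 had an interval above 0, and the part of this was not tested. TNFRSF18 had 0 counts in both libraries.

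Of the 21 genes of the adaptor, PI3K and MAPK arm, all were tested, with 3 intervals above 0 and 7 below, against 21.8% and 23.9% of all genes tested, and a median of 0.00081. Nearly all had at least 2000 counts, and the shares among all genes with that many were 29% and 34.4%. The balance of the list depended on the setting: 3 were above and 9 below with median-of-ratios scaling, 4 were above and 4 below with upper-quartile scaling and likewise after the fit, and 6 above and 5 below with the longest transcripts. MAP2K2 had 7383 and 7223 counts (0.086, 0.039 to 0.13; -0.033 after the fit) and PIK3CD, the lymphoid catalytic subunit of PI3K, 20681 and 19867 (0.059, 0.031 to 0.087). PIK3CA, another catalytic subunit of PI3K, had 1688 and 1408 (-0.14, -0.25 to -0.041; 0.049 after the fit with longest transcripts).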

How the data were processed

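Reads of 2 libraries, 1 per condition, had been trimmed by the authors with Trimmomatic 0.38, mapped with HISAT2 2.2.0 and counted per gene with StringTie 2.1.3b, and the processing notes name hg38 and edgeR 3.17. The deposited read counts are not scaled. Deposited TPM and FPKM hold whole numbers only, a rounding made by the authors, so each was used as a score without a count model. Commas within counts from 1000 upwards were removed. Here, TMM scaling (30% of log ratios and 5% of levels trimmed; factors 1.00 and 0.999), log2 CPM and 95% Clopper-Pearson intervals on the division of a gene's reads were computed in Python 3.11.15 (numpy 2.4.6, pandas 2.3.3, scipy 1.17.1, statsmodels 0.14.6) and tested on simulated data. No count model was fitted, since 1 library per condition gives no spread between replicates. Transcript length and GC content were medians over GENCODE release 29 transcripts, the protein-coding ones if a gene has any, known for 88.5% of the genes tested, and the robust regression used 9926 genes with at least 200 counts. Members and lists were chosen with earlier results of these data known. Named of each list were the 2 genes highest in TPM, genes of at least 100 counts with an interval beyond 1.2-fold and further genes by the bound nearest to 0 up to 4; genes with 3 counts or fewer in both libraries are given as not detected. Some genes that this rule or the marker lists name are not reported here. The planned comparison of proteins was not made, and shared transcript words were used instead.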

Additional observations from a re-analysis of the deposited data

How the results depend on the processing

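No paired analysis was possible because there was a single library per condition, and none could be left out. Tried instead were other scalings (upper quartile, library size, median of ratios), a prior count of 0.5 or 5, filters of 1 and 200 counts, the deposited TPM with a pseudocount of 1, and the fits on transcript length and GC content, of which the one with the longest transcripts was chosen after seeing the data. JAK3, SOCS1, STAT5A, IL2RA, JAK1, STAT5B and PIM1 kept their direction in all 8 alternatives other than the filters, though intervals came to hold 0 for IL2RA with upper-quartile scaling and after either fit, for STAT5A after either fit and for JAK1 after the fit on median transcripts. Over all results, 57 main values and 569 further ones stayed near the value reported, 5 and 69 moved farther and 2 and 9 reversed. Near means within the counting interval, for counts within 1.5 times and for percentiles within 5, so a value whose interval held 0 could change sign and still be near. Medians of the members and lists are in this tally too, and no limit for them is given here. The prior count does not enter the counting interval, and TPM gives none. The median of the members was 0.0062 with TPM, -0.0034 with the fit removed and -0.016 with the longest transcripts. With the fit removed, 2 members had intervals above 0 and 2 below, and with the longest transcripts 3 were above. With genes of at least 200 counts SOCS1 was not tested, which left 0 members 1.2-fold higher. IL2RB was at -0.011 with the fit removed, in which its transcript length was 624 bases against 4113 for its longest transcript. IL2RG was at -0.0034 with TPM and -0.012 with the longest transcripts, and CISH at -0.020 with the latter. With the fit removed MAP2K2 was at -0.033 and PTPRC at 0.043, and with the longest transcripts MAP2K2 was at -0.083, PIK3CA at 0.049 and PTPRC at 0.092. The cause of these shifts was not tested.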

Other observations

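Some transcripts of the T cell receptor complex were present beside the NK cell markers, while CD3D and CD3G were at 0 in both libraries. TRBC1 had 3664 counts in the control and 4100 in the exposed library (330 and 385 TPM), TRAC had 1501 and 1312 (75 and 69 TPM), and the costimulatory receptor gene CD28 had 2252 and 1803. PDGFRB, which encodes a growth factor receptor of mesenchymal cells, had 9081 and 8027 counts (80 and 75 TPM), while COL1A1, COL1A2, EPCAM and KRT18 were at 0 in both libraries and KRT8 had 2 and 0.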
